A study of Mus musculus with 6 samples.

Results

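Myeloid C-type lectin receptors are surface proteins through which macrophages, neutrophils and dendritic cells read sugars and lipids on microbes and dying cells. Their genes were followed here in tumor-associated macrophages (TAMs). The 10 receptor genes Clec4e, Clec4d, Clec4n, Clec4a1, Clec4a2, Clec4a3, Clec7a, Clec12a, Clec10a and Clec5a were taken by symbol from a table of 55421 genes, and each was found under 1 Ensembl identifier. All 10 passed the expression filter that left 14469 genes to test. The TAMs were CD11b+F4/80+ cells collected from implanted MC17-51 fibrosarcoma tumors (M17 in the labels) 15 days after implantation into mice that were 8 to 12 weeks old. Both groups carried floxed Pdcd1, the gene of the inhibitory receptor PD-1. In Pdcd1f/fLysMcre mice Cre recombinase under the lysozyme promoter targets that gene in myeloid cells, whereas the control Pdcd1f/f mice had no Cre, and 3 libraries were made for each genotype. The strain of the mice and the number of mice behind a library are not given in the sources used here.

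Several of these receptors activate the cell. Mincle (Clec4e), MCL (Clec4d) and Dectin-2 (Clec4n) have no signaling motif of their own and pair with the Fc receptor gamma chain (Fcer1g), while MDL-1 (Clec5a) pairs with DAP12 (Tyrobp) and Dectin-1 (Clec7a) carries a motif in its own tail. These motifs recruit the kinase Syk, and the signal runs through Card9, Bcl10 and Malt1 to NF-kB and cytokine genes. DCIR (Clec4a2) and MICL (Clec12a) instead carry inhibitory motifs that recruit phosphatases. Clec4a1 and Clec4a3 are relatives of DCIR in the mouse, and Clec10a encodes a galactose-binding receptor typical of alternatively activated macrophages.

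Of the activating genes of the Dectin-2 cluster, Clec4e and Clec4n were at higher levels in Pdcd1f/fLysMcre TAMs, Clec4d was not past the threshold, and Clec4b1, an activating gene outside the 10, was lower (log2 fold change -1.76). None of the 3 DCIR-type genes among the 10 was past the threshold. Clec4e was 1.63-fold higher (95% interval 1.44 to 1.84), Clec5a 1.44-fold higher (1.25 to 1.66), Clec7a 1.31-fold higher (log2 fold change 0.40, interval 0.21 to 0.58), and Clec4n had a log2 fold change of 0.27 (0.12 to 0.41). These 4 of the 10 genes were past an adjusted p-value of 0.05 in edgeR's quasi-likelihood test, all of them upward, and 0 were past it downward. At an unadjusted p under 0.05, 6 were higher and 1 lower, beside 12.3% and 11.9% of all genes tested. DESeq2 called 5 higher and 0 lower, beside 5.22% and 5.83% of all genes. In edgeR's adjusted test, 5.43% of all genes tested were past the threshold, 2.42% upward and 3.01% downward. In 5 of the 10 genes every Pdcd1f/fLysMcre library lay above every Pdcd1f/f library, which held for 14.1% of all genes tested. None of the 10 lay wholly below, against 13.1% of all genes tested. The median log2 fold change was 0.24 over the 10 genes and -0.0026 over all genes tested. The labels do not say that the replicates came from separate animals, so p-values measure the spread between these samples and may not measure that between mice. A change in the number of expressing cells and a change in RNA per cell, upward or downward, cannot be told apart in bulk samples.

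**Figure D1:**
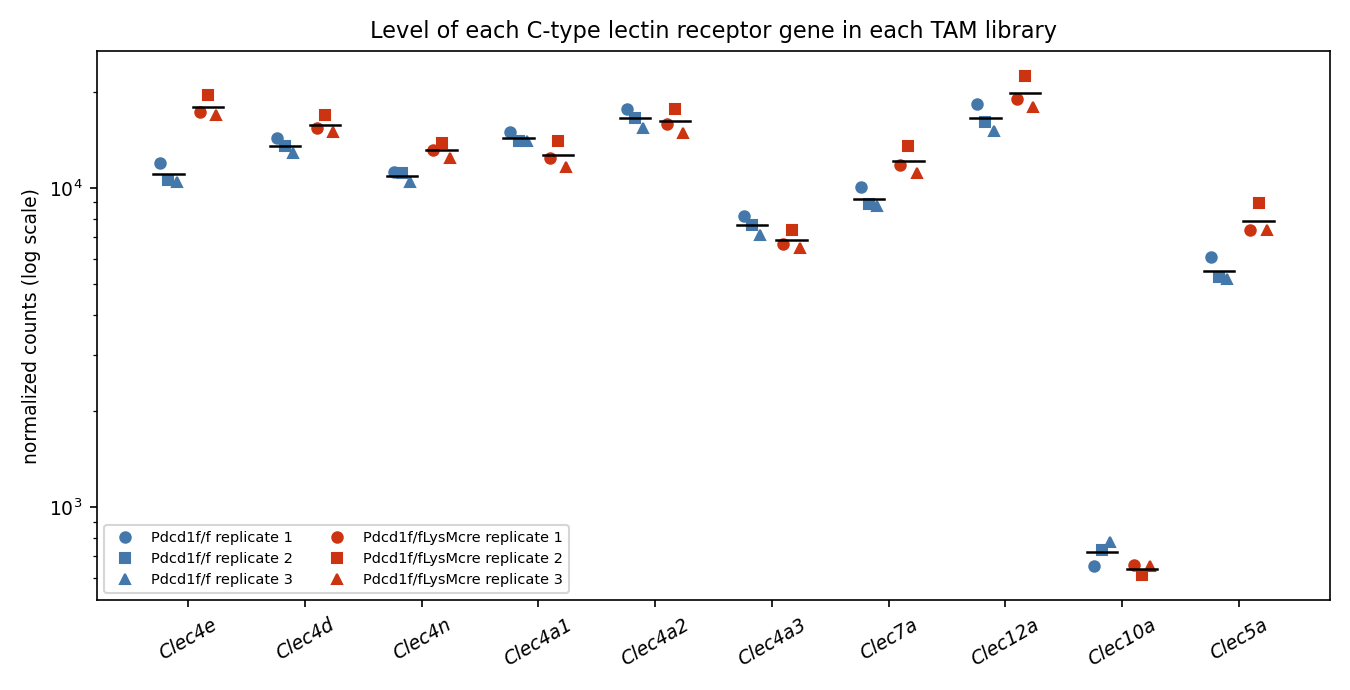
Normalized counts (log axis) of the 10 receptor genes in each of the 6 libraries, with Pdcd1f/f in blue, Pdcd1f/fLysMcre in red, 1 marker shape for each replicate number and black lines at the group means. Clec4e, Clec4d, Clec4n, Clec7a and Clec5a are the genes whose groups do not overlap.

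The libraries held between 41833823 and 51417209 counts. Pdcd1f/f replicate 1 and Pdcd1f/fLysMcre replicate 2 stood apart from the others. Across 11565 genes, a gene's deviation from its group mean correlated with its GC content at Spearman's rho of -0.72 and -0.64 in these libraries, and at 0.17 to 0.66 in the other 4 (a description across genes of the same libraries). The receptor genes are poor in GC, with a median of 41.2% against 49.2% for all genes tested. Also, 9 of the 10 genes, with Clec10a as the exception, were highest in Pdcd1f/f replicate 1 among the controls and in Pdcd1f/fLysMcre replicate 2 among the others. Results are therefore given also without both libraries, and with offsets fitted to each library for GC content and gene length. With the offsets 6 of the 10 genes were past the threshold upward and 2 downward, where 11.2% and 7.74% of all genes were. Without both libraries the counts were again 6 and 2, beside 12.5% and 13.6% of all genes, and each of the 10 genes kept its direction in both analyses. As a check of the labels, Lyz2, which carries the Cre insertion, had 207974 to 225226 normalized counts in the controls and 405 to 465 in the other group, while Pdcd1 had 7 to 16 counts in any library and did not separate the groups. The summed Y-linked genes, at 1545 to 1914 against 6267 to 7233 normalized counts, also separated the genotypes. Xist, at 17318 to 26511 against 8530 to 13137, lay in the reverse order, so genotype and the sex composition of the libraries cannot be told apart. Per the methods, as many male as female mice went into each experiment, and the labels do not give the sex behind these libraries. Xist and the Y-linked genes were both counted in every library, so each may hold cells of mice of both sexes, which was not tested. Lyz1, the neighbor of Lyz2, had 126 to 173 against 3462 to 3816. The genotypes thus differed in Lyz2 and Lyz1 too, and the part of these genes cannot be told apart from that of Pdcd1 targeting.

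The promoter windows of the 3 receptor genes with the largest upward changes, and of Clec4d beside Clec4e, show what the annotation places upstream of them. RefSeq windows of 250 bases before to 50 bases after the transcription start (GRCm38.p6) matched 8 of the 10 genes by symbol. Clec4n and Clec10a had no entry. Each strand was searched for the letters of 4 motifs of factors active in myeloid cells, namely TTGCNNAA for C/EBP, GAGGAAG for PU.1, TGANTCA for AP-1 and a longer motif for NF-kB. Of the 32851 windows in the table, 10.8% held the C/EBP letters, 13.6% the PU.1 letters, 7.81% the AP-1 letters and 1.47% the NF-kB letters. Capitals mark a match on either strand, and each sequence is written 5′ to 3′ on the strand of its gene. The windows lie on chromosome 6 at chr6:123289822-123290121 (Clec4e, minus strand), chr6:40585756-40586055 (Clec5a, minus), chr6:129472730-129473029 (Clec7a, minus) and chr6:123261857-123262156 (Clec4d, plus).
Clec4e: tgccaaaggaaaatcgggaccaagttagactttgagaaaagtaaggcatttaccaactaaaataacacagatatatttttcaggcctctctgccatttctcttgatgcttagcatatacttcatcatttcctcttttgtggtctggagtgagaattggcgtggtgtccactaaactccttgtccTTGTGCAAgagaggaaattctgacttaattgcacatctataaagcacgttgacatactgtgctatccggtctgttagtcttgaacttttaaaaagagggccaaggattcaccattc
Clec5a: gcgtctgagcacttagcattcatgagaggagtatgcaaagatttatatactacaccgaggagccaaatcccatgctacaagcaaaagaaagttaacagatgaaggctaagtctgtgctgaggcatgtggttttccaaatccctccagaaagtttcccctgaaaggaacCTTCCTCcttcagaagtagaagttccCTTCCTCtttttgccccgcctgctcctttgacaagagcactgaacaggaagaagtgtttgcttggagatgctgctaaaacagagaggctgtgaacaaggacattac
Clec7a: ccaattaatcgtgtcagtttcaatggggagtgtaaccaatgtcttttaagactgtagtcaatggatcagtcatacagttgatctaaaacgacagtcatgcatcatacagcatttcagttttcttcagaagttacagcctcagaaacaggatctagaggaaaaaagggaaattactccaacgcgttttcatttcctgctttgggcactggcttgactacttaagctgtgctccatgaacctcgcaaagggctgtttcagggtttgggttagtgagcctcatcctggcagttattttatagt
Clec4d: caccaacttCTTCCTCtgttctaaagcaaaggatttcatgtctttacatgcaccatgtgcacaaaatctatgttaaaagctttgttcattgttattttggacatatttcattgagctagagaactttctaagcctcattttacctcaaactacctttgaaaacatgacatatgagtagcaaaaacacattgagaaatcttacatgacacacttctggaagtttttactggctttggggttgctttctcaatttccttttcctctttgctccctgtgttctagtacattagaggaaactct
The Clec4e window held 1 match to C/EBP, which begins 66 bases before the start. Clec5a had 2 matches to PU.1, at 82 and 56 bases before the start, and Clec4d had 1, at 241 bases. The Clec7a windows held none of the 4 motifs, as did those of Clec4a3. Among the windows not printed, Clec12a held 1 match each to AP-1, C/EBP and PU.1, Clec4a1 held 1 to PU.1 and Clec4a2 held 1 to AP-1. A match is a run of letters and was not tested as a binding site.

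Clec4e, which senses mycobacterial cord factor and a protein released by dying cells, changed most among the 10. Its gene (ENSMUSG00000030142) lies on the minus strand of chromosome 6 from 123281789 to 123289870 in GRCm38. Pdcd1f/f replicates 1, 2 and 3 held 11988, 10620 and 10440 normalized counts and the Pdcd1f/fLysMcre libraries held 17317, 19561 and 16889. The lowest Pdcd1f/fLysMcre library was thus well above the highest control. The log2 fold change was 0.70 (SE 0.08, adjusted p = 8.06e-04). Leaving out each library in turn gave values between 0.64 and 0.76, with adjusted p between 2.42e-05 and 0.00824, so the call held in 6 of 6 fits. It was 0.61 with the offsets (adjusted p = 1.31e-08) and 0.70 without both libraries that stood apart (adjusted p = 1.96e-08).

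Clec4n and Clec4d lie beside Clec4e, and these activating genes are called the trio here (Clec4b1, a further activating gene of the cluster, is not part of it). Clec4n, a receptor for fungal mannans, held 11193, 11171 and 10409 normalized counts across the controls and 13185, 13784 and 12398 in the Pdcd1f/fLysMcre libraries. These groups did not overlap, and the log2 fold change was 0.27 (SE 0.07, adjusted p = 0.0413). The call was lost when any library other than Pdcd1f/f replicate 1 was left out, with adjusted p between 0.0553 and 0.171 and log2 fold changes of 0.23 to 0.30. With the offsets it stayed past the threshold (0.24, adjusted p = 6.45e-04). Clec4d encodes the partner that forms a complex with Mincle. It held 14314, 13506 and 12855 normalized counts in the controls and 15449, 16894 and 14996 in Pdcd1f/fLysMcre TAMs, so its groups did not overlap either. Its log2 fold change of 0.22 (SE 0.07) was not past the threshold (adjusted p = 0.0872). It passed without Pdcd1f/f replicate 1 (0.25, adjusted p = 0.0201), with the offsets (0.15, adjusted p = 0.0205), without both libraries (0.20, adjusted p = 0.00421) and with DESeq2 (0.22, adjusted p = 0.0444).

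Within the trio the proportions of the genes differed between the genotypes. The gap between the genes Clec4d and Clec4e is 6.52 kb, and that between Clec4n and Clec4d is 15.1 kb. The ratio of Clec4e to Clec4d counts was 0.84, 0.79 and 0.81 across the controls and 1.12, 1.16 and 1.13 in the Pdcd1f/fLysMcre libraries. Thus Clec4e was counted less than Clec4d in each control and more in each Pdcd1f/fLysMcre library. The ratio of Clec4d to Clec4n was 1.279, 1.209 and 1.235 in the controls and 1.172, 1.226 and 1.210 in the others, so these groups overlapped. Ratios were taken within a library and carry no test, because the genes were chosen with results of these data known.

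**Figure D2:**
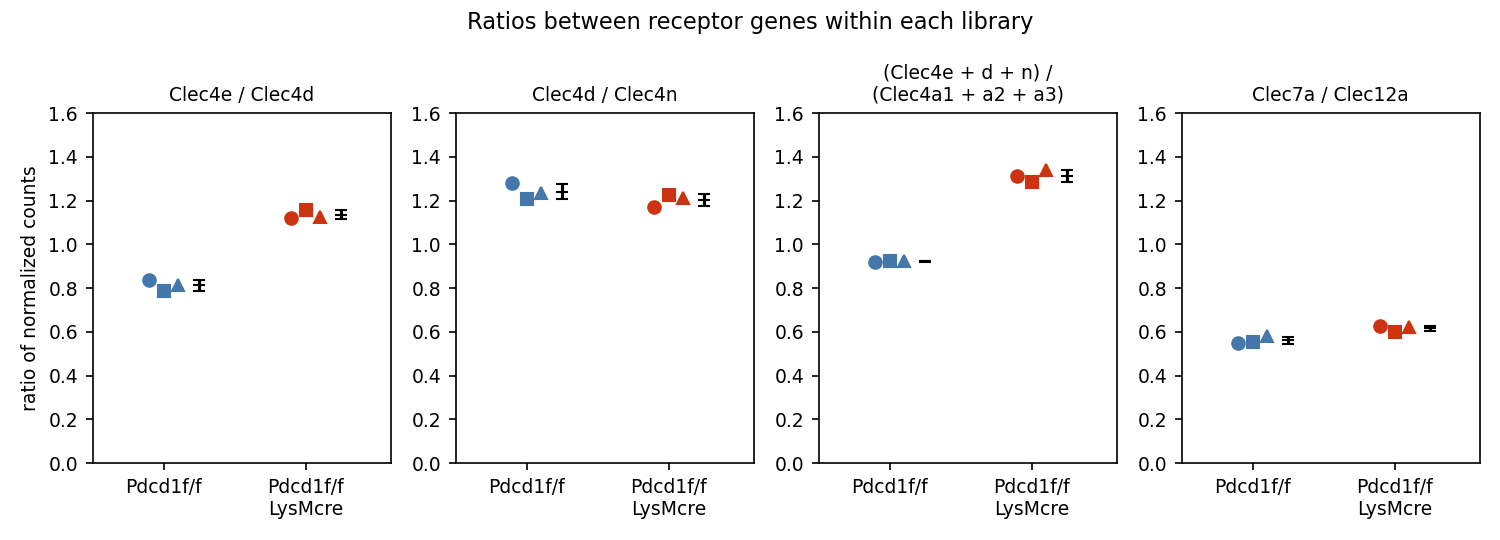
Ratios of normalized counts between receptor genes within each library (vertical axis from 0), with Pdcd1f/f in blue and Pdcd1f/fLysMcre in red, 1 marker shape for each replicate, and the mean ± SD of 3 libraries in black. The trio against the Clec4a genes goes from 0.92 in the Pdcd1f/f group to 1.31 in the other, and the ratio of Clec4d to Clec4n overlaps between the groups.

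Of the 3 Clec4a genes, none was past the threshold. Clec4a1 held 14977, 14041 and 13976 normalized counts across the controls and 12425, 14003 and 11629 in the Pdcd1f/fLysMcre libraries (log2 fold change -0.17, SE 0.08, adjusted p = 0.191). Clec4a3 held 8158, 7658 and 7107 against 6660, 7399 and 6496 (-0.16, SE 0.07, adjusted p = 0.232). In both, Pdcd1f/fLysMcre replicate 2 lay within the range of the controls and the other 2 lay below it. Clec4a1 and Clec4a3 were past the threshold downward with the offsets (-0.21, adjusted p = 0.00285, and -0.22, adjusted p = 0.00189) and without both libraries (-0.22, adjusted p = 0.00251, and -0.17, adjusted p = 0.0240). Clec4a2, the inhibitory receptor DCIR, held 17698, 16523 and 15440 against 15899, 17665 and 14896, and these ranges overlapped widely (-0.03, interval -0.21 to 0.14, adjusted p = 0.832). It was not past the threshold with the offsets alone (-0.14, adjusted p = 0.0553) or without both libraries (-0.06, adjusted p = 0.444). It was past the threshold downward when the offsets were combined with the replicate block (-0.14, adjusted p = 0.0415) or used without Pdcd1f/f replicate 1 (-0.20, adjusted p = 0.00107). Its estimate turned to 0.0077 without Pdcd1f/f replicate 1 and to 0.016 without Pdcd1f/fLysMcre replicate 3. About 8.09% of the 42-base words of the Clec4a2 transcripts, the length of a read, are shared with other genes, chiefly Clec4a4 and Clec4b1, so its counts depend on how such reads were counted.

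Set against each other within a library, the trio and the Clec4a genes gave a ratio that did not overlap between the genotypes. The summed counts of Clec4e, Clec4d and Clec4n stood to those of Clec4a1, Clec4a2 and Clec4a3 as 0.92, 0.92 and 0.92 across the controls and as 1.31, 1.29 and 1.34 in the Pdcd1f/fLysMcre libraries. The SD was 0.0028 among the controls and 0.028 among the others. Pdcd1f/f replicate 1, which stood apart, had 0.9182 beside 0.9234 and 0.9228 in the other controls, and Pdcd1f/fLysMcre replicate 2 had the lowest value of its group. The ratio of Clec4e to Clec4a1 alone went from 0.77 ± 0.029 to 1.41 ± 0.033 (SD, n = 3 in each group).

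The remaining genes of the Dectin-2 cluster, which spans positions 122921848 to 123289870 of chromosome 6, were few in counts. Clec4b1, whose product DCAR is itself an activating receptor that pairs with the Fc receptor gamma chain, had 105, 112 and 88.7 normalized counts in the controls and 25.9, 44.8 and 18.7 in Pdcd1f/fLysMcre TAMs. It fell by 1.76 on the log2 scale (SE 0.29, adjusted p = 0.00653). Clec4b1 had 19 to 113 raw counts per library and shares 92 read-length words with the far more counted Clec4a2, so its counts too depend on how shared reads were treated. Without Pdcd1f/fLysMcre replicate 1 it was -1.67 with an adjusted p of 0.0513, and it was past the threshold in the other 5 fits with 1 library left out. Clec4a4 had group means of 59.1 and 49.1 normalized counts (-0.26, adjusted p = 0.491), and Clec4b2 had at most 7 counts in any library and was not tested. Over the 5 tested of these 6 non-trio genes of the cluster, 0 were higher and 1 was lower, in edgeR (2.42% and 3.01% of all genes) as in DESeq2 (5.22% and 5.83%). At an unadjusted p under 0.05 the counts were 0 and 2 (12.3% and 11.9%), and with the offsets 0 and 3 (11.2% and 7.74%).

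The Dectin-1 cluster lies 6053 kb from Clec4e on the same chromosome, at 129342691 to 129507165. Clec7a, the receptor for beta-glucans, held 10087, 8897 and 8775 normalized counts in the controls and 11832, 13491 and 11143 in Pdcd1f/fLysMcre TAMs, without overlap. It rose by 0.40 on the log2 scale (SE 0.08, adjusted p = 0.0235). The call held without Pdcd1f/f replicate 1 or Pdcd1f/fLysMcre replicate 3 and was lost without any one of the other 4 libraries (adjusted p of 0.0743 to 0.1296). With the offsets it was 0.32 (adjusted p = 2.90e-05). The annotation lists Clec7a as a polymorphic pseudogene. Clec12a, an inhibitory receptor for uric acid crystals, held 18380, 16031 and 15125 against 18920, 22457 and 17941. Pdcd1f/f replicate 1 lay above the lowest Pdcd1f/fLysMcre library, and the log2 fold change of 0.26 (SE 0.10) was not past the threshold (adjusted p = 0.135). It passed without Pdcd1f/f replicate 1 (0.34, adjusted p = 0.0153), with the offsets (0.17, adjusted p = 0.0190) and without both libraries (0.24, adjusted p = 0.00170). It did not pass with DESeq2 (0.26, adjusted p = 0.0811), and without Pdcd1f/fLysMcre replicate 2 the value was 0.16 (adjusted p = 0.387). The ratio of Clec7a to Clec12a was 0.549, 0.555 and 0.580 in the controls and 0.625, 0.601 and 0.621 in the others, without overlap.

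Among the cluster genes outside the 10, Olr1, the receptor for oxidized low-density lipoprotein, had 677, 559 and 641 normalized counts in the controls and 1053, 1083 and 1008 in Pdcd1f/fLysMcre TAMs. It rose by 0.75 (SE 0.09, adjusted p = 0.00133) and passed in 6 of 6 fits with 1 library left out. Clec1b had 11 to 21 counts per library (log2 fold change 0.46, adjusted p = 0.471). Clec12b, Clec1a and Clec9a had at most 2, 13 and 6 counts and were not tested. So 2 of the 4 tested genes of the Dectin-1 cluster were higher and 0 were lower, by edgeR (2.42% and 3.01% of all genes) and by DESeq2 (5.22% and 5.83%), and 3 and 0 at an unadjusted p under 0.05 (12.3% and 11.9%). The median log2 fold change was 0.27 over the trio and -0.03 over the 9 other tested genes of both clusters, a difference of 0.30. Those 9 genes pool unlike groups, since the median was 0.43 over the Dectin-1 cluster, above the trio, and -0.17 over the other Dectin-2 genes.

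**Figure D3:**
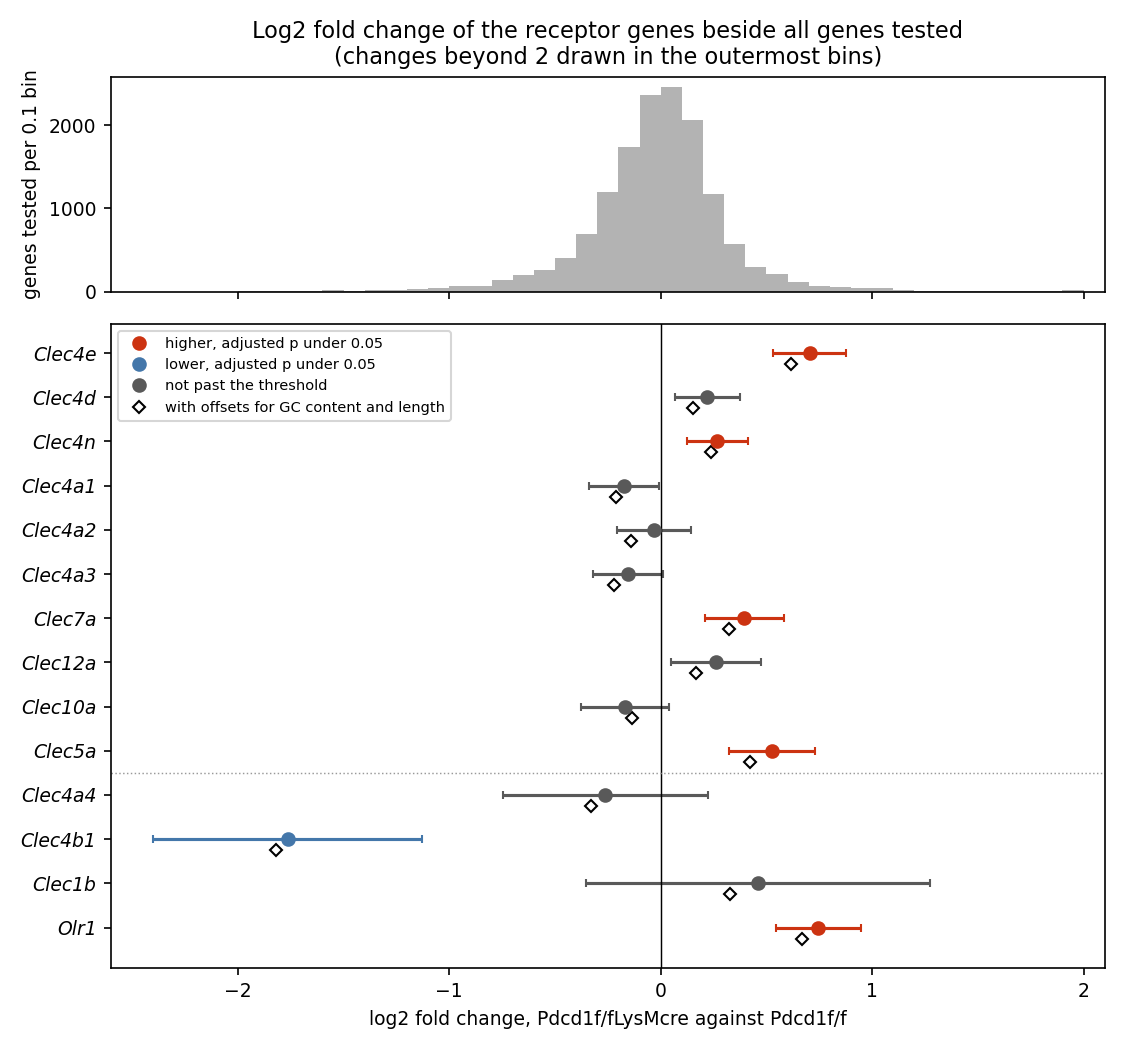
Upper panel: number of tested genes in each 0.1-wide bin of log2 fold change. Lower panel: log2 fold change with its 95% interval for the 10 genes and, below the dotted line, 4 other tested genes of the same clusters, with open diamonds for the estimate with offsets. Clec4e and Olr1 lie furthest to the right at 0.70 and 0.75, and Clec4b1 lies at -1.76.

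Clec5a lies outside both clusters, on the minus strand of chromosome 6 from 40574894 to 40585821. Its product is an activating receptor of monocytes and neutrophils. It held 6060, 5253 and 5184 normalized counts across the controls and 7357, 8941 and 7402 in the Pdcd1f/fLysMcre libraries. The groups did not overlap, and it rose by 0.52 on the log2 scale (SE 0.09, adjusted p = 0.00912). The adjusted p was 0.0589 without Pdcd1f/f replicate 2 and under the threshold in the other 5 fits with 1 library left out. With the offsets the value was 0.42 (adjusted p = 5.38e-06). Clec10a, on chromosome 11 from 70156197 to 70170834, was the least counted, with 654, 735 and 779 against 658, 610 and 655 (-0.17, SE 0.09, adjusted p = 0.295). Its groups overlapped, it passed in none of the alternative analyses, and 11.2% of its 42-base words are shared with other genes, chiefly its paralog Mgl2.

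**Figure D4:**
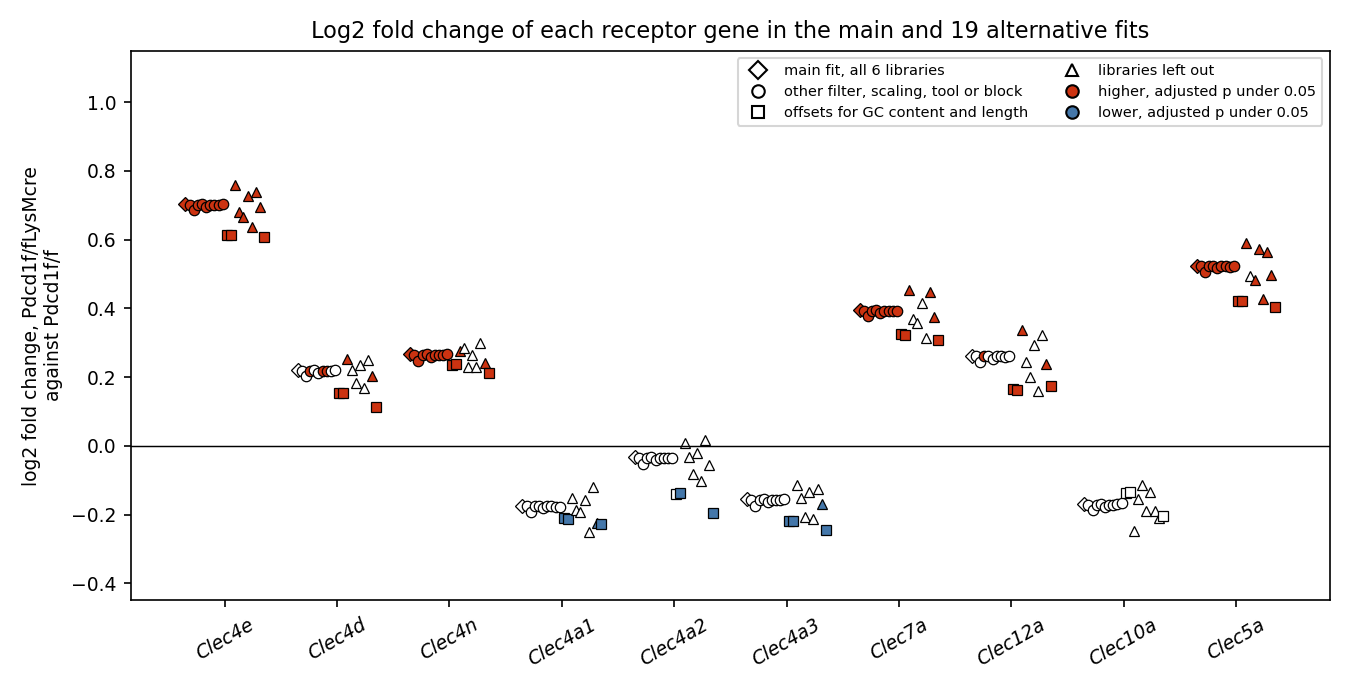
Log2 fold change of each receptor gene as reported (diamonds) and in 19 alternatives, with circles for another filter, scaling, tool or the block, squares for the offsets and triangles for libraries left out. Red or blue fill marks genes past the threshold upward or downward, and no fill those not past it. Each of these estimates for Clec4e is filled and lies between 0.61 and 0.76, whereas Clec4n and Clec7a lose their fill in several fits with 1 library left out.

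Per length, the order of the receptors differed between the genotypes. Normalized counts per kb of merged exons in the controls were 9198 ± 359 for Clec4a1, 8479 ± 457 for Clec4d, 7693 ± 314 for Clec4n, 5758 ± 396 for Clec4a3 and 5657 ± 386 for Clec4a2 (SD, n = 3). Below these came Clec7a at 3508 ± 275, Clec12a at 2987 ± 304, Clec4e at 2219 ± 171, Clec5a at 1432 ± 127 and Clec10a at 249 ± 21.9. Only the neighbors Clec4a3 and Clec4a2 overlapped in their library ranges. In Pdcd1f/fLysMcre TAMs Clec4d came first at 9869 ± 620, followed by Clec4n at 9241 ± 490 and Clec4a1 at 8142 ± 776, with overlapping ranges between Clec4d and Clec4n and between Clec4n and Clec4a1. Further down, Clec4a3 (5163 ± 363) overlapped both Clec4a2 (5521 ± 479) and Clec7a (4608 ± 457). Clec4e moved from place 8 to place 7, at 3610 ± 289, and its range there overlapped that of Clec12a. The merged exons of Clec4e are 4965 bases, while its longest protein-coding transcript is 2518 bases. On the latter length Clec4e was in place 7 in the controls, at 4375 ± 336 per kb, and in place 5 in the other group, at 7118 ± 570. On that length its range overlapped that of Clec7a in the controls and those of Clec4a1, Clec12a and Clec4a2 in the other group. As a share of all counts of the 10 genes, Clec4e went from 10.4% ± 0.20 to 14.6% ± 0.16 and Clec4a1 from 13.5% ± 0.39 to 10.3% ± 0.13 (SD, n = 3).

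Across the 6 libraries, the genes whose log2 CPM followed that of Clec4e most closely among 11559 genes were Rai14, Rasgrp1, Cpsf6, Tars and Serpinb6b, with Pearson's r between 0.9967 and 0.9989. Of the other receptors, Clec5a came nearest at 0.98, followed by Clec7a at 0.97, Clec4n at 0.96, Clec4d at 0.95 and the inhibitory receptor Clec12a at 0.86. Among the 11559 genes their ranks were 119 for Clec5a, 232 for Clec7a, 316 for Clec4n, 484 for Clec4d and 1482 for Clec12a, so many other genes followed Clec4e more closely. Clec4a2 stood at 0.05, Clec4a1 at -0.55, Clec4a3 at -0.50 and Clec10a at -0.85. These values describe 6 libraries in 2 genotypes, so any gene that differs between the genotypes follows Clec4e in part.

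Of 30 other C-type lectin genes listed, edgeR tested 15 and called 0 higher and 2 lower (2.42% and 3.01% of all genes), with a median log2 fold change of -0.015. DESeq2 gave the same counts (5.22% and 5.83%), and at an unadjusted p under 0.05 they were 2 and 5 (12.3% and 11.9%). With the offsets 1 was higher and 3 were lower (11.2% and 7.74%). The mannose receptor Mrc1, a marker of alternatively activated macrophages, had 146379, 133243 and 132856 normalized counts in the controls and 111650, 115066 and 104754 in Pdcd1f/fLysMcre TAMs (-0.31, SE 0.07, adjusted p = 0.0219). Cd302 fell by 0.51 (adjusted p = 0.00785). Both calls were lost without Pdcd1f/f replicate 2 (adjusted p = 0.0909 for Mrc1 and 0.0507 for Cd302) and without Pdcd1f/fLysMcre replicate 1 (0.114 and 0.0640), and that of Mrc1 also without Pdcd1f/fLysMcre replicate 3 (0.0748).

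The partner of the trio, Fcer1g, was not past the threshold, and that of Clec5a was lower. Fcer1g held 34659, 34090 and 32249 normalized counts across the controls and 32680, 34072 and 31951 in the Pdcd1f/fLysMcre libraries (log2 fold change -0.03, SE 0.06, adjusted p = 0.793). The ratio of Clec4e to Fcer1g therefore went from 0.33 ± 0.017 to 0.54 ± 0.026 (SD, n = 3). Tyrobp held 22065, 25417 and 26082 against 20512, 18038 and 19922 (-0.33, SE 0.08, adjusted p = 0.0405), the reverse of Clec5a. This call held in 1 of the 6 fits with 1 library left out, that without Pdcd1f/f replicate 1 (adjusted p = 0.00191), and was lost in the others (adjusted p of 0.0712 to 0.207). It stayed past the threshold with the offsets (-0.26, adjusted p = 5.16e-04). Syk had group means of 17349 and 17588 (0.02, SE 0.07, adjusted p = 0.883), and with the offsets it was past the threshold (0.12, adjusted p = 0.0372). Of the 8 adapters and kinases 0 were higher and 1 was lower in edgeR (2.42% and 3.01% of all genes), and of the 3 phosphatases that inhibitory receptors recruit, Ptpn6, Ptpn11 and Inpp5d, none was past the threshold. At an unadjusted p under 0.05 the adapters and kinases gave 1 higher and 2 lower and the phosphatases 0 and 1 (12.3% and 11.9% of all genes). DESeq2 called 0 higher and 2 lower among the former and 0 and 1 among the latter (5.22% and 5.83%). With the offsets 3 adapters and kinases were higher (Src, Fgr and Syk) and 1 lower, and 1 phosphatase (Inpp5d) was lower (11.2% and 7.74%).

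Downstream, 2 of 25 genes of the relay from Syk to NF-kB and MAPK were higher and 0 lower in edgeR (2.42% and 3.01% of all genes). At an unadjusted p under 0.05 the counts were 6 and 4 (12.3% and 11.9%), and DESeq2 called 6 and 2 (5.22% and 5.83%). With the offsets 7 were higher and 1 was lower (11.2% and 7.74%). Malt1, the protease of the Card9 complex, rose from 13880 ± 1543 to 19138 ± 817 normalized counts (SD, n = 3; log2 fold change 0.47, adjusted p = 0.00919), and the call was lost without Pdcd1f/f replicate 2 (adjusted p = 0.0630) or Pdcd1f/fLysMcre replicate 1 (0.0706). Nfatc1, a transcription factor that Dectin-1 signals can engage, rose by 0.25 (adjusted p = 0.0441). Of the 6 fits with 1 library left out, its call held in that without Pdcd1f/f replicate 1, and it also held with the offsets (0.34, adjusted p = 9.25e-06). Card9 itself had group means of 1872 and 1671 (-0.16, adjusted p = 0.455). Its value was -0.29 without Pdcd1f/f replicate 1 (adjusted p = 0.0526), -0.08 without Pdcd1f/fLysMcre replicate 2 (0.823) and -0.02 with the offsets (0.859). The median over the 25 genes was 0.02, close to that of all genes tested.

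Of 16 cytokine, chemokine and enzyme genes that these receptors are known to induce, 5 were higher and 0 lower in edgeR (2.42% and 3.01% of all genes). The counts were 8 and 2 at an unadjusted p under 0.05 (12.3% and 11.9%), 5 and 1 in DESeq2 (5.22% and 5.83%), and 7 and 1 with the offsets (11.2% and 7.74%). The neutrophil chemokine Cxcl3 held 5018, 5260 and 5460 normalized counts in the controls and 9447, 9904 and 9503 in Pdcd1f/fLysMcre TAMs. Its groups lay far apart, and it rose by 0.88 (SE 0.06, adjusted p = 2.84e-05). The call held in 6 of 6 fits with 1 library left out. The prostaglandin synthase Ptgs2 rose by 0.38 (adjusted p = 0.00603), Il1b by 0.31 (0.0128), Il6 by 0.56 (0.0403) and Il10, an anti-inflammatory cytokine, by 0.36 (0.0311). Without Pdcd1f/f replicate 2 or Pdcd1f/fLysMcre replicate 1 only Cxcl3 remained of these 5, and without Pdcd1f/f replicate 3 the count was 2. The calls of Il6 and Il10 each held in 1 of the 6 fits, that without Pdcd1f/f replicate 1. Tnf had group values from 5200 to 5604 and from 4625 to 4849 (-0.20, adjusted p = 0.0859), without overlap, and was not past the threshold. It was the gene called lower by DESeq2 (adjusted p = 0.0398) and with the offsets (-0.14, adjusted p = 0.0224). Tnf also passed downward without Pdcd1f/f replicate 1 (-0.24, adjusted p = 0.0175) and without both libraries that stood apart (-0.22, adjusted p = 0.00417).

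**Figure D5:**
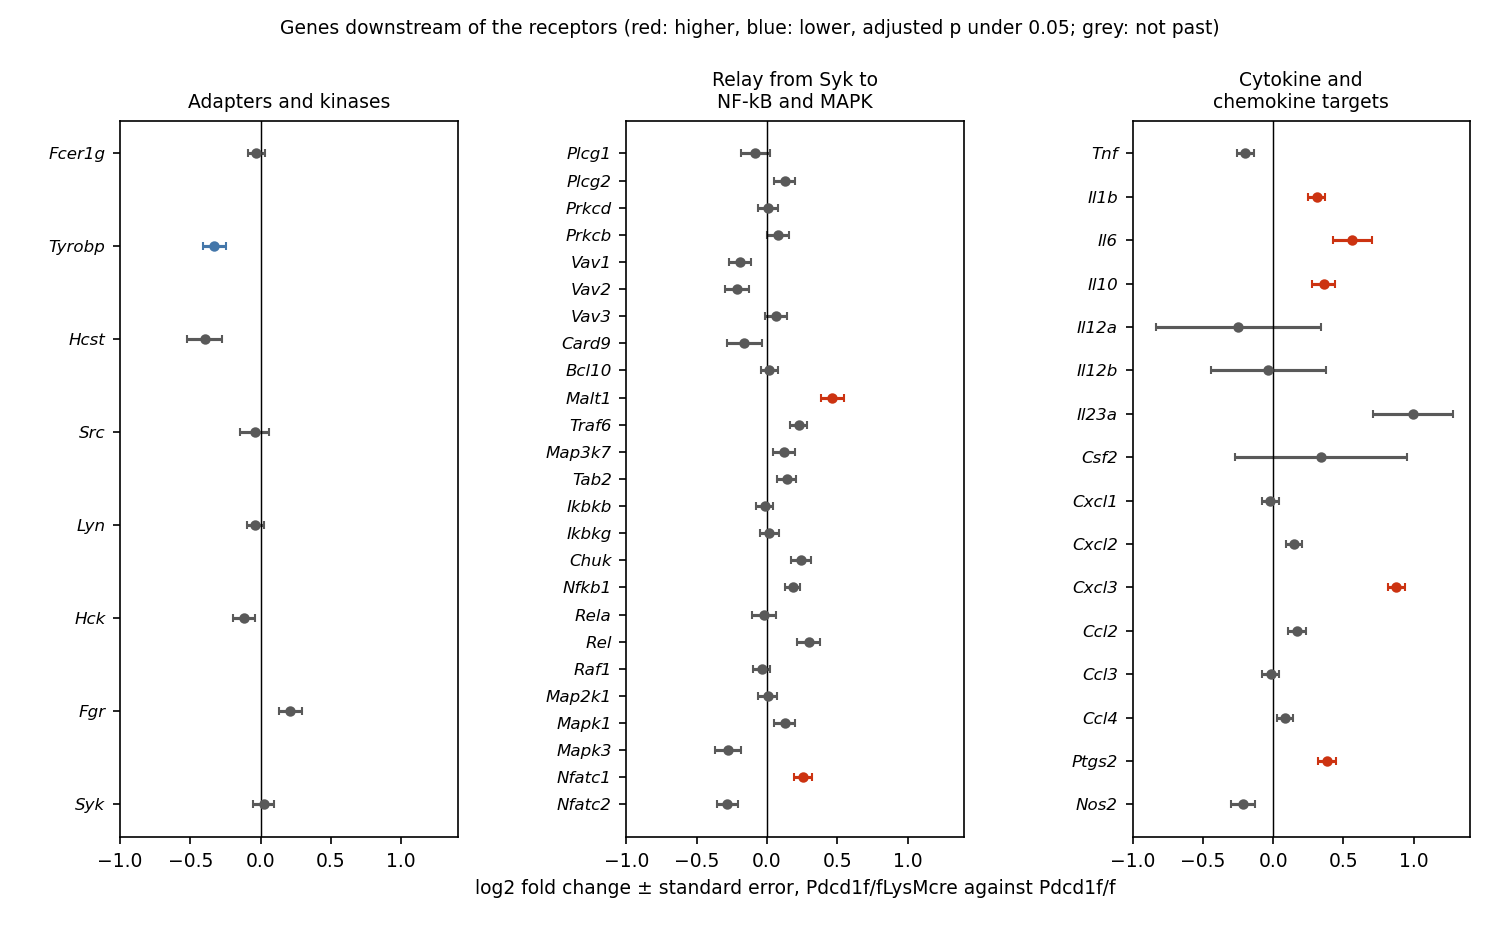
Log2 fold change ± SE of the adapters and kinases, the relay genes and the induced genes, in red where higher, in blue where lower and in grey where not past the threshold. Of the called genes, Cxcl3 lies furthest right at 0.88 and Tyrobp is the one that lies to the left.

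Of 10 regulators that are known to act on genes of this kind, Hif1a was higher (0.27, adjusted p = 0.0420) and Cebpa lower (-0.35, adjusted p = 0.0380), where 2.42% and 3.01% of all genes were. The counts were 2 higher and 5 lower at an unadjusted p under 0.05 (12.3% and 11.9%), 2 and 3 in DESeq2 (5.22% and 5.83%), and 2 and 2 with the offsets (11.2% and 7.74%), and the median was -0.18. Each of these calls held in 1 of the 6 fits with 1 library left out, that without Pdcd1f/f replicate 1, and that of Cebpa was lost with the offsets (-0.14, adjusted p = 0.0635). Cebpb, a known activator of Clec4e, had group means of 8307 and 6894 (-0.27, SE 0.10, adjusted p = 0.128). Its value depended on the fit. With the offsets it was -0.04 (adjusted p = 0.670), and it was past the threshold downward without Pdcd1f/f replicate 1 (-0.38, adjusted p = 0.00301) and without both libraries that stood apart (-0.35, adjusted p = 2.81e-04).

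Markers of cells that the gate could hold were read beside these results. The sort that the methods describe, for TAMs of another mouse line of the study, took CD45+CD11b+F4/80+Ly6G- live cells, a gate that removes neutrophils, and the labels of these libraries give CD11b+F4/80+. Of all genes tested, edgeR called 2.42% higher and 3.01% lower, and 11.2% and 7.74% with the offsets. Of 10 macrophage markers 0 were higher and 6 lower (Adgre1, Csf1r, Mertk, C1qa, C1qb and C1qc). Of the 6 fits with 1 library left out, the call of Mertk held in 6, those of Adgre1 and C1qc in 4, those of C1qa and C1qb in 3 and that of Csf1r in 2. The summed level of the 10 markers was 343967 to 402634 normalized counts across the controls and 284846 to 305330 in the others. The sum of the 11 neutrophil markers was 6583 to 6777 against 5501 to 5638, with Mmp8 and Csf3r lower of 6 tested, and Ly6g had 0 to 3 counts per library. The other tested neutrophil markers went both ways without passing, S100a8 (0.23), S100a9 (0.12) and Cxcr2 (0.03) upward and Retnlg (-0.95) downward. S100a8 was past the threshold upward without both libraries that stood apart (0.33, adjusted p = 0.00302). Among 6 monocyte markers none was past the threshold in edgeR, 3 were higher and 0 lower at an unadjusted p under 0.05 (12.3% and 11.9% of all genes), and their sum was 43809 to 45122 against 47622 to 52504. The dendritic cell sum was 302 to 407 against 388 to 453, with none of 6 tested markers past the threshold. Sums for T and NK cells were 625 to 701 and 561 to 676, those for B cells 169 to 209 and 120 to 149, and those for mast cells and basophils 246 to 282 and 211 to 342. The stromal and tumor sum was 4367 to 4528 against 3742 to 4118, with Col1a2 and Pecam1 lower of 8 tested. Mcpt8, Prss34 and Pax5 had 0 counts in all libraries. In DESeq2, which called 5.22% of all genes higher and 5.83% lower, 7 macrophage markers were lower and 0 higher, and 1 monocyte marker was higher and 0 lower. It also called 2 neutrophil, 2 stromal and 1 B cell marker lower and none of these higher. At an unadjusted p under 0.05, 7 macrophage, 3 neutrophil, 3 stromal and 1 B cell marker were lower and 2 dendritic cell markers higher. With the offsets 7 macrophage markers, 3 neutrophil markers, 2 stromal markers and 1 B cell marker were lower, and 3 monocyte markers (Fn1, Vcan and Treml4) and 1 dendritic cell marker (Zbtb46) were higher. In the reported fit Fn1 (0.21), Vcan (0.38) and Treml4 (0.55) went upward without passing, and Ly6c2 (-0.06), Ccr2 (-0.01) and Plac8 (-0.02) downward. Of the dendritic cell markers, Flt3 (0.67), Zbtb46 (0.69), Cd209a (0.43) and Ccr7 (0.03) went upward and Batf3 (-0.49) and Itgae (-0.29) downward. The sums of the macrophage, neutrophil, monocyte, B cell and stromal markers did not overlap between the genotypes, and their part in the receptor results was not tested.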

How the data were processed

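RNA of TAMs from 3 Pdcd1f/f and 3 Pdcd1f/fLysMcre libraries was sequenced as paired-end 42-nt reads after polyA selection. The authors deposited raw counts for 55421 Ensembl genes (FastQC 0.11.5, cutadapt 2.5, STAR 2.7.3a, GRCm38, Ensembl annotation 98, featureCounts of Subread 1.6.2, per the submitters' processing notes and the methods). Whether counting used the strand, and how multi-mapped reads were treated, is not given in the sources used here. The authors also deposited a signal table of 16552 genes, in which counts are divided by 1 DESeq2 (1.24.0) size factor for each library. Normalized counts of genes outside it were computed with the same factors.

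Genotypes were compared on raw counts with edgeR 4.0.16 (R 4.3.3): filterByExpr (minimum count 10, minimum total count 15), TMM, robust glmQLFit and the two-sided glmQLFTest, with p-values adjusted by Benjamini-Hochberg across 14469 genes and called under 0.05. Every adjusted p is from edgeR unless another tool is named. SEs came from the log2 fold change and F statistic. Fits with 1 library left out rest on 5 libraries. Alternatives were RLE size factors, library size alone, other filters, DESeq2 1.42.0 with Benjamini-Hochberg or Storey adjustment, limma-trend (limma 3.58.1) on log2(value + 1), the replicate block, loess offsets for GC content and length (span 0.5), a threshold of 0.01 and each library left out. Leaving out both libraries that stood apart, the offsets without Pdcd1f/f replicate 1 and the longest coding transcript were chosen after seeing the data. Positions, lengths and GC content came from GENCODE M21.

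The members and gene lists were chosen with earlier results of these data known. One gene of these lists is not reported here and was left out of their counts and sums. The named genes are the 10 receptors, genes of the fixed lists with the called ones first by the size of the log2 fold change, the 5 genes most correlated with Clec4e, and Lyz2, Lyz1, Pdcd1, Xist and Y-linked genes as checks of the labels. Depth was 41833823 to 51417209 counts per library, and 3 counts correspond to 2.78 to 3.35 normalized counts, for counting error only. The edgeR test, with and without the offsets or the replicate block, DESeq2 with each adjustment and limma-trend were first run on simulated data. There the reported edgeR test recovered 77% of changes of 1 on the log2 scale and 54% of those of 0.5. Of its 141 calls, 10 were false. The simulated counts held no bias of GC content or length and no replicate effect, so they could not test the offsets or the block.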

Additional observations from a re-analysis of the deposited data

How the results depend on the processing

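Main calls were 4 receptors higher, 0 lower and 786 genes in all (44.5% of them higher). Under RLE size factors, library size alone, the filters of at least 10 counts in every library and of the normalized table, and limma-trend, the receptor counts stayed at 4 and 0. The count over all genes was 1951 with all genes of at least 1 count, 1598 with DESeq2, 1950 with Storey q-values and 283 at a threshold of 0.01, where 2 receptors were higher. DESeq2 called 5 receptors higher and the fit of all genes with at least 1 count called 6. Offsets for GC content and length gave 2742 genes (59.2% higher), 2 receptors lower and a difference between the trio and the other cluster genes of 0.38 in place of 0.30, a pooled value, since the Dectin-1 cluster's median of 0.43 in the reported fit was above the trio's 0.27. Without both libraries that stood apart 3757 genes and 2 lower receptors were called. Offsets without Pdcd1f/f replicate 1 gave 3391 genes, 3 lower receptors (Clec4a1, Clec4a2 and Clec4a3) and a difference of 0.41. With each library left out in turn, the higher receptors numbered 1 to 6, all genes 222 to 3181 and the difference 0.27 to 0.33, with the fewest receptors without Pdcd1f/f replicate 2, the fewest genes without Pdcd1f/fLysMcre replicate 1 and the most of both without Pdcd1f/f replicate 1. Clec4a2 ranged from -0.10 to 0.016 in these fits. Src turned from -0.04 to 0.13 with the offsets, with the offsets and block, and with the offsets without Pdcd1f/f replicate 1, and Rela from -0.02 to 0.15, 0.15 and 0.16. The causes were not tested.

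The deviations of same-numbered libraries from their group means correlated at -0.035, -0.25 and 0.52, and those of the other pairs at -0.56 to 0.51. These values cannot decide whether replicate numbers pair the libraries, since the deviations also correlated with GC content. With the replicate block 4 receptors were higher, 0 lower and 1027 genes were called. Offsets with the replicate block gave 2817 genes and 3 lower receptors, and a difference of 0.37. Clec12b, Clec1a, Clec9a and Clec4b2 were too shallow to test.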
